A study of Mus musculus with 9 samples.

Results

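Thymic lobes of Foxn1 mutant and Tbx1 mutant embryos were compared with each other directly, without use of wild type. The members were the 3 arrays labelled Foxn1933/1089 and the 3 labelled Tbx1neo2/neo2, which are 6 of the 9 arrays of the series. Expression was read from all 22142 transcript clusters of the TC class among 28846 features, where a cluster is the set of probes for a gene. All embryos were C57BL/6 at day e13.5, and total RNA of embryonic thymic lobes was hybridised to whole-transcriptome Clariom S mouse arrays. Foxn1933/1089 embryos carry a different mutant Foxn1 allele on each chromosome and are called Foxn1 mutants here. Tbx1neo2/neo2 embryos carry on both chromosomes an allele known to lower Tbx1 expression and are called Tbx1 mutants. The labels name neither pooled lobes nor separate embryos for the arrays of a genotype, so the p-values rest on the spread between these arrays, which may be technical. Values are log2 levels as deposited, and each difference is the Foxn1 mutant mean minus the Tbx1 mutant mean.

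The thymus and the parathyroid glands grow out together from the third pharyngeal pouch. The thymic domain of the pouch turns on Foxn1, a forkhead factor that thymic epithelial cells need to mature and to support incoming lymphoid progenitors. The parathyroid domain turns on Gcm2 and then makes parathyroid hormone, and the glands separate from the thymic lobes as both move through the neck. Tbx1 is a T-box factor of the pharynx that acts before either organ is visible, in the formation of the pouches. The comparison therefore sets a factor of the organ against a factor of the pouch that precedes it.

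Of the 6 arrays, 5 carried strong markers of cortical thymic epithelium and 1 did not. Prss16, a serine protease of cortical epithelium, read 14.10, 4.45 and 13.87 on Foxn1 mutant replicates 1 to 3 and 13.98, 14.28 and 14.05 on Tbx1 mutant replicates 1 to 3. Psmb11, the thymus-specific proteasome subunit, read 10.37, 3.36 and 10.49 against 9.52, 10.44 and 10.43. Foxn1 mutant replicate 2 was thus at background for both genes. Its general leukocyte genes averaged 6.46 where the other 5 arrays lay between 8.69 and 9.55. Prss16 and Psmb11 are also in the list of FOXN1-dependent genes used below, and this array is from a Foxn1 mutant. Prss16 was low as well, at 4.24, on wild type replicate 1, which is not part of this comparison. Whether the low values of Foxn1 mutant replicate 2 come from the mutation or from the tissue taken was not tested. That mutant array also had the highest heart muscle genes, with a list mean of 6.42 against 4.20 to 4.73. Differences between the mutants and list medians are therefore given with and without this array. It was the highest of the 6 at 5067 of 22142 clusters and the lowest at 5013. That is 22.8% of all highest and lowest values, against at most 18.5% for any other array. The array medians lay between 5.10 and 5.14, and the medians of the negative-control probes, used here as the background of each array, between 4.36 and 4.68. Precision is limited by how few arrays there are: the smallest two-sided exact permutation p for a single value is 0.1 with 3 arrays against 3, and 0.2 with 2 against 3.

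A date code stands in each title, written here as A, B or C, and what it dates is not stated. Foxn1 mutant replicate 2 and Tbx1 mutant replicate 1 have code A, the other Foxn1 mutants code B and the other Tbx1 mutants code C. Only code A holds both genotypes, and its Foxn1 mutant array is the one with low Prss16. Between codes B and C, and so in every result without that array, genotype and code cannot be told apart, except for Tbx1 mutant replicate 1 in the latter. Uty and Kdm5d, genes of the Y chromosome, read 8.47 and 6.96 on Tbx1 mutant replicate 1 and between 2.47 and 3.71 on the other 5 arrays. The part of sex in the results was not tested beyond leaving out the clusters of X and Y.

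Neither Foxn1 nor Tbx1 itself passed the test between the mutants. Foxn1 read 9.02, 8.73 and 9.67 in the Foxn1 mutants, against 8.88, 10.04 and 9.70 in the Tbx1 mutants, so the groups overlapped. The difference was -0.40 ± 0.36 (SE, n = 3 per genotype) and -0.20 without Foxn1 mutant replicate 2. Tbx1 read 4.07, 4.83 and 4.61 in the Foxn1 mutants, against 5.38, 4.80 and 5.30 in the Tbx1 mutants. These levels are close to background, and the difference was -0.66 ± 0.27 with 6 arrays and -0.82 without Foxn1 mutant replicate 2. The groups overlapped with 6 arrays but not without that array, where 12.4% of all clusters were lower without overlap. Tbx1 thus had the higher mean in the mutants whose allele is known to lower it, without a call, and the reason was not tested. Probe positions are not known here, so a level of either gene does not check the genotype. The 24 nearest measured neighbours of Foxn1 had a median difference of 0.08, and those of Tbx1 had 0.02 (0.09 and 0.05 without replicate 2).

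With limma and all 6 arrays, 2 of 22142 clusters passed an adjusted p of 0.05, which is 0.00903% of those tested. Both were higher in the Foxn1 mutants, and both are genes of the parathyroid, Chga and Pth. No cluster was called lower (0 of 22142). An unadjusted p under 0.05 was reached by 775 clusters (3.5%), of which 432 were higher in the Foxn1 mutants (1.95%) and 343 lower (1.55%). Over all clusters the median difference was 0.01, and the arrays of the genotypes did not overlap at 8.92% of clusters. Without Foxn1 mutant replicate 2, 5 clusters were called (0.0226%): 4 higher (0.0181%), namely Chga, Pth, Nell1 and a cluster with no gene symbol, and 1 lower (0.00452%), Entpd4. In that comparison 8.87% of clusters had an unadjusted p under 0.05, with 1048 higher (4.73%) and 915 lower (4.13%), and the arrays did not overlap at 27.1% of clusters.

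**Figure D1:**
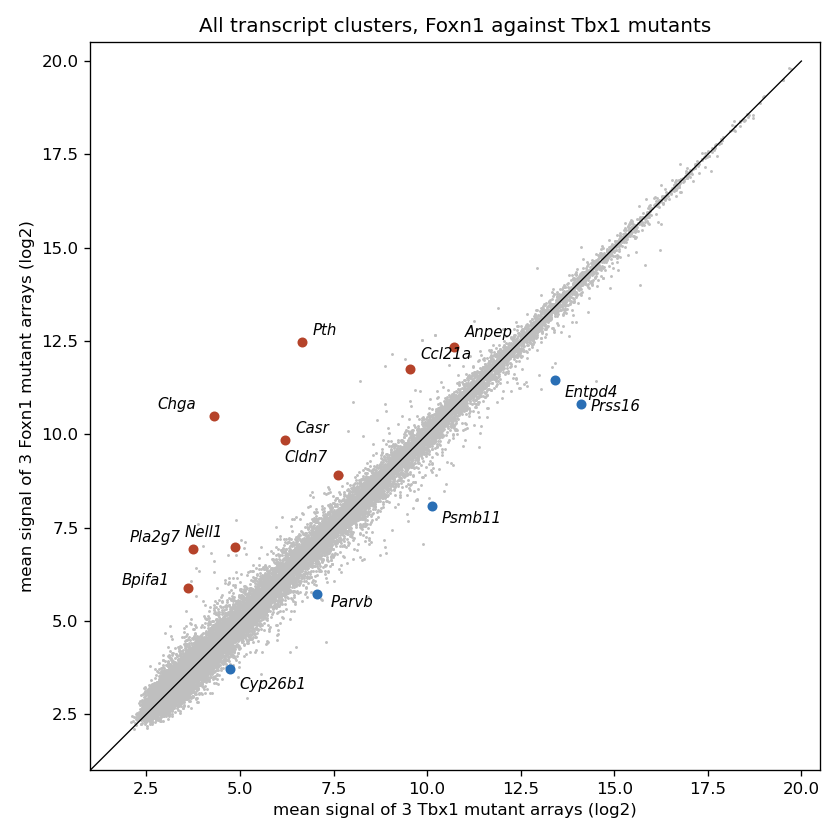
Mean log2 level of each transcript cluster in the 3 Tbx1 mutant arrays (horizontal axis) and the 3 Foxn1 mutant arrays (vertical axis), with named genes marked. Chga and Pth lie farthest above the diagonal, with Foxn1 mutant means of 10.49 and 12.47 against 4.30 and 6.66.

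The parathyroid genes gave the widest separation between the mutants. Chga encodes chromogranin A, a protein of the granules in which endocrine cells store hormone. It read 10.21, 10.17 and 11.10 on the Foxn1 mutant arrays and 3.68, 4.78 and 4.46 on the Tbx1 mutant arrays. All Foxn1 mutant arrays, the one with low Prss16 included, stood above all Tbx1 mutant arrays by over 5 log2 units, and only 1 of the 3 Tbx1 mutant arrays was above background. Chga was higher in the Foxn1 mutants by 6.19 ± 0.37 (SE; limma adjusted p = 0.00376), and by 6.35 ± 0.39 without Foxn1 mutant replicate 2 (adjusted p = 0.00755). With each low value raised to the background of its array, the difference was at least 59.5-fold, and at least 66.6-fold without that array.

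Pth encodes parathyroid hormone, which raises blood calcium. Its levels were 12.22, 11.95 and 13.25 in the Foxn1 mutants, against 7.06, 6.85 and 6.07 in the Tbx1 mutants, above background on all 6 arrays. The groups did not overlap, and the lowest Foxn1 mutant array was again replicate 2. Pth was higher in the Foxn1 mutants by 5.81 ± 0.40 (SE; limma adjusted p = 0.00575), a 56.2-fold difference, and by 6.07 ± 0.40 without replicate 2 (adjusted p = 0.00755), a 67.4-fold difference. In bulk lobes, fewer parathyroid cells and less Pth RNA per cell cannot be told apart. Within code A, with 1 array of each genotype, the difference was 4.89 for Pth and 6.49 for Chga, and between codes B and C it was 6.28 and 6.04. The call of both genes was lost when Foxn1 mutant replicate 1 was left out (adjusted p = 0.0714 for Pth and 0.0504 for Chga), and that of Pth also without Tbx1 mutant replicate 1 (0.0577) or replicate 2 (0.0835).

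The promoters of these called genes are shown because both genes were called in the same direction. They come from RefSeq, assembly GRCm38.p6, and each is the 300 bases around the start of the gene, 5′ to 3′ on the strand of the gene. Capitals mark a match, on either strand, to one of 3 short motifs, a GCM motif (TGCGGGT), a T-box motif (GGTGTGA) and the core of a FOXN1 site (GACGC). The Chga promoter lies at chr12:102554691-102554990 on the plus strand and that of Pth at chr7:113388524-113388823 on the minus strand.
Chga promoter: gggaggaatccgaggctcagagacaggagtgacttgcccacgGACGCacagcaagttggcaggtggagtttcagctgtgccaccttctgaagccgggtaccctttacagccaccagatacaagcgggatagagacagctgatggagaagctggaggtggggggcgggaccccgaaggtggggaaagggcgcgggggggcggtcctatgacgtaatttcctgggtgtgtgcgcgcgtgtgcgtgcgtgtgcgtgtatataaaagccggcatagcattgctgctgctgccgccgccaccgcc
Pth promoter: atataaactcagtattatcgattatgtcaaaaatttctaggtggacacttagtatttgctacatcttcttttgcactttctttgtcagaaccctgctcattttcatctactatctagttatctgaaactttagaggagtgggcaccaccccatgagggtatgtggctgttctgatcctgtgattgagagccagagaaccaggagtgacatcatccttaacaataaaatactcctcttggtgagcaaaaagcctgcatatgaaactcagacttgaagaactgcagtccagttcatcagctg
The Chga sequence held 1 match to GACGC, and the Pth sequence held no match to any of the 3 motifs. Over 32544 distinct RefSeq promoters of the same length, 27.3% held GACGC, 2.45% TGCGGGT and 3.95% GGTGTGA. A match or its lack describes these letters only.

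Casr encodes the calcium-sensing receptor, through which parathyroid cells measure calcium and set hormone release. It read 9.85, 8.13 and 11.57 in the Foxn1 mutants, against 7.02, 6.02 and 5.58 in the Tbx1 mutants. The groups did not overlap, but the Foxn1 mutant arrays spread over more than 3 log2 units. The difference of 3.64 ± 0.79 (SE) did not pass the test (limma adjusted p = 0.963), nor did 4.50 ± 0.57 without replicate 2 (adjusted p = 0.112). It was 1.11 within code A and 4.91 between codes B and C, over 1.5 times apart. Of the 9 genes of the parathyroid list, 6 were measured, and 4 of these were higher in the Foxn1 mutants with no overlap between arrays, where 5% of all clusters did the same. The list median was 2.93 and 3.53 without replicate 2, against 0.01 over all clusters in both. To complete the list, Chgb, a relative of chromogranin A, was at background on all 6 arrays, and Pth1r, the receptor on cells that respond to the hormone, differed by -0.28 and by -0.58 without replicate 2. The other listed genes were not analysed here. Other genes of calcium handling and of secretory granules had a median of 0.09, with 10 of 13 higher and 3 lower. Without replicate 2 the median was 0.00, with 7 higher and 6 lower, and none was called in either comparison.

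**Figure D2:**
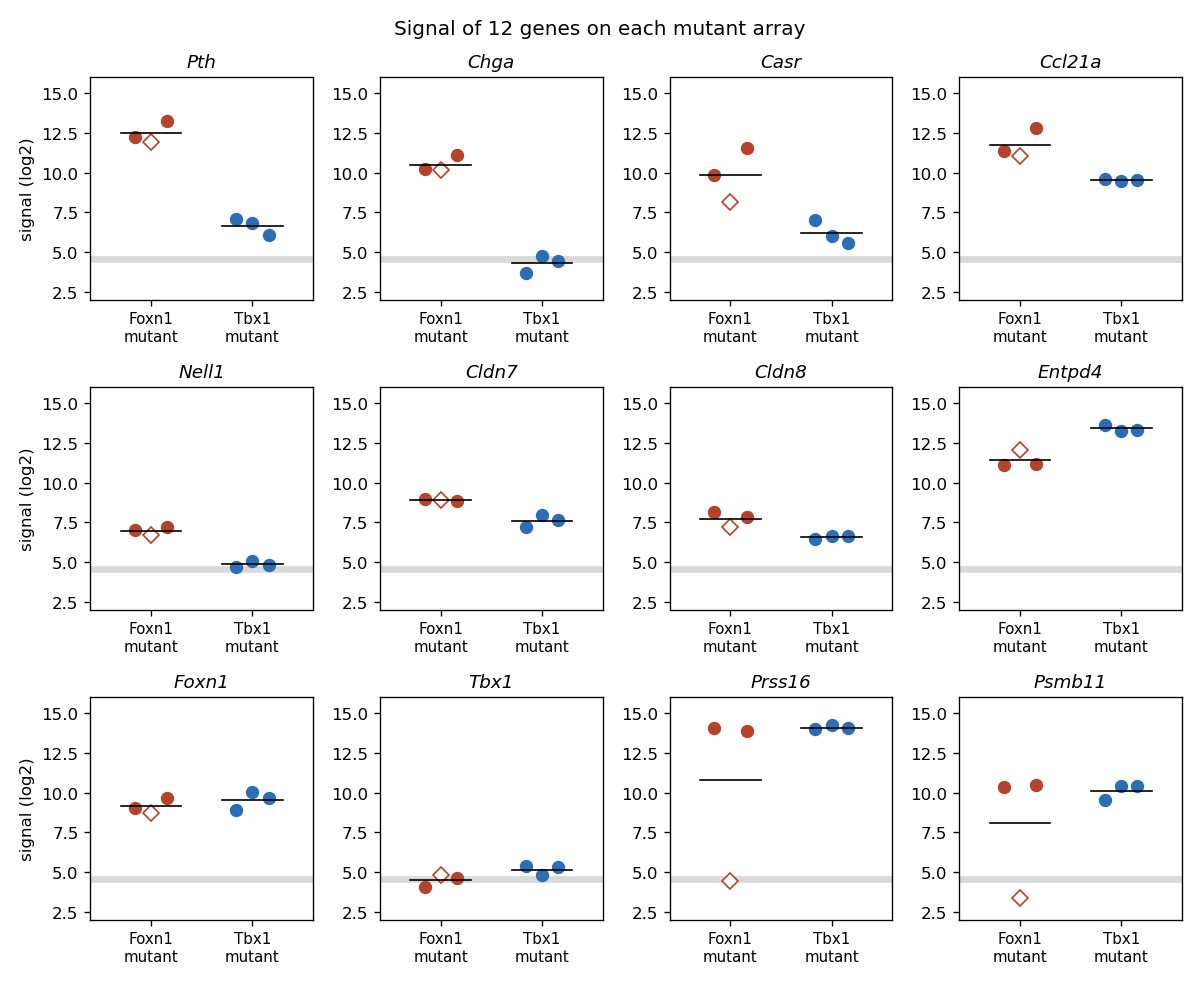
Log2 level of selected genes on each of the 6 arrays, with the open diamond marking Foxn1 mutant replicate 2, the black bar the mean of the 3 arrays of a genotype and the grey band the range of the negative-control medians. Chga, Pth and Casr are high on all Foxn1 mutant arrays, while Prss16 and Psmb11 are at background on replicate 2 alone.

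Ccl21a, a chemokine that draws lymphoid progenitors and that the fetal parathyroid domain also makes, read 11.38, 11.05 and 12.84 in the Foxn1 mutants, against 9.58, 9.49 and 9.56 in the Tbx1 mutants. The Tbx1 mutant arrays lay within 0.1 of each other and under every Foxn1 mutant array. The difference was 2.21 ± 0.43 (SE; limma adjusted p = 0.745) and 2.56 ± 0.39 without replicate 2 (adjusted p = 0.214), and it was not called. The mouse genome holds several near-identical copies of this gene, so their clusters may read the same transcripts and are uncertain one by one. They differed by 2.47 for Ccl21c, 2.65 for a Ccl21b cluster and 3.23 for the predicted gene Gm13304 (2.81, 3.01 and 3.59 without replicate 2). That Ccl21b cluster repeated the values of a Gm10591 cluster on every array, and the other Ccl21b cluster repeated those of Ccl21c. All these clusters were above background on all 6 arrays with no overlap between genotypes, and none passed the test.

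Among the other genes that were higher in the Foxn1 mutants, Nell1 was the only gene with a symbol called without replicate 2, and with all 6 arrays it was not called in the fit without weights. Nell1 encodes a secreted protein with EGF-like repeats that is known from bone and cartilage. It read 6.99, 6.70 and 7.20 against 4.70, 5.06 and 4.83, so all Foxn1 mutant arrays were higher by over 1.5 log2 units. The difference was 2.10 ± 0.22 (SE; limma adjusted p = 0.057) and 2.23 ± 0.22 without replicate 2 (adjusted p = 0.0491). It was 2.00 within code A and 2.15 between codes B and C. With all 6 arrays Nell1 was called under array weights (adjusted p = 0.0233). The call without replicate 2 was lost when the wild type arrays with high Prss16 were added to the fit (0.159) and, with Tbx1 mutant replicate 1 left out as well, between codes B and C (0.164). It was also lost with all wild type arrays added, where no cluster was called, and with quantile normalization, where only Chga and Pth were called. A cluster with no gene symbol read 7.49, 6.55 and 8.72 against 3.70, 4.14 and 3.78, at background on all Tbx1 mutant arrays, and was at least 11.6-fold higher without replicate 2 (adjusted p = 0.0374) and at least 8.12-fold with it (adjusted p = 0.22).

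Genes next in order of p whose arrays did not overlap follow as levels only, since none passed the test. Bpifa1, which encodes a secreted protein of upper airway epithelium, read 5.55, 5.75 and 6.34 in the Foxn1 mutants. It was at background on all Tbx1 mutant arrays, which makes it at least 2.49-fold higher (limma adjusted p = 0.0963), and at least 2.61-fold without replicate 2. Pla2g7, a phospholipase that inactivates platelet-activating factor, read 5.99, 6.62 and 8.15 and was at background in all Tbx1 mutants, at least 5.13-fold lower (adjusted p = 0.385), and at least 5.69-fold without replicate 2. Spink8, a serine protease inhibitor gene, differed by 2.06 ± 0.29 (SE; adjusted p = 0.268) and by 1.79 without replicate 2, with 6.32, 7.31 and 6.62 against 4.57, 4.58 and 4.91. Anpep, which encodes the cell surface aminopeptidase N, read 11.88, 12.45 and 12.69 against 10.92, 10.43 and 10.83 and differed by 1.61 ± 0.27 (adjusted p = 0.412) and by 1.56 without replicate 2. Only genes without overlap on the 6 arrays were taken, so the array with low Prss16 lies above all Tbx1 mutants here by that choice.

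The genes whose values over the 6 arrays were most like those of Pth, by Pearson correlation over the whole table, were Nell1, Cpvl, Pgam5, Chga, Pla2g6 and Bpifa1. The arrays fall into groups of high and low Pth, so these correlations largely restate the split by genotype and have no p. Sizes differed widely among these genes. Pla2g6, a calcium-independent phospholipase gene, read 6.23, 6.31 and 6.34 against 5.90, 5.89 and 5.91, a narrow gap, and Cpvl was at background on all 6 arrays.

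On the lower side the called gene was Entpd4, which encodes a nucleoside diphosphatase of the Golgi and lysosomes. It read 11.12, 12.09 and 11.16 in the Foxn1 mutants, against 13.66, 13.28 and 13.29 in the Tbx1 mutants, without overlap. Foxn1 mutant replicate 2 was nearest to the Tbx1 mutants. The difference was -1.96 ± 0.30 (SE; limma adjusted p = 0.385) with 6 arrays, and Entpd4 fell by 2.27 on the log2 scale without replicate 2 (adjusted p = 0.0491). Entpd4 was also called with all 6 arrays under array weights (0.0438). Its call without replicate 2 was lost with the wild type arrays of high Prss16 added (0.159), and between codes B and C, where Tbx1 mutant replicate 1 is left out as well. It was lost too with quantile normalization, with array medians subtracted and with array weights, where no cluster was called lower. A further cluster of Entpd4 differed by -1.74 and was not called with or without replicate 2. A gene of like name, Entpd4b, is annotated as well, and which probes the genes share is not known here, so the values of Entpd4 are uncertain. Of the clusters with no gene symbol, that of lowest p on this side differed by -2.77 ± 0.28 (SE; limma adjusted p = 0.057) and by -2.84 without replicate 2. Another was at background on all Foxn1 mutant arrays and at least 3.65-fold lower there, or at least 3.90-fold without replicate 2, and neither was called.

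Other genes on the lower side are values without a call. Chd7, a chromatin remodeller of the neural crest and pharynx, read 11.71, 11.45 and 11.39 in the Foxn1 mutants, against 12.41, 12.54 and 12.17 in the Tbx1 mutants. The arrays were tight in each genotype and did not overlap, and the difference was -0.85 ± 0.21 (SE), with -0.82 without replicate 2, -0.95 within code A and -0.80 between codes B and C. Parvb, a focal adhesion protein gene, differed by -1.34 ± 0.24, and Sgcd, which encodes the muscle membrane protein delta-sarcoglycan, by -1.15 ± 0.23 (-1.16 and -1.27 without replicate 2). Neurl2, a ubiquitin ligase gene, differed by -1.29 ± 0.26 and Adam23, which encodes an adhesion protein, by -1.47 ± 0.37 (-1.08 and -1.20 without replicate 2). The zinc finger gene Zfp932 and the predicted gene Gm15446 differed by -1.10 and -0.78 (-0.91 and -0.72 without replicate 2). Cyp26b1, which degrades retinoic acid, was at background on all Foxn1 mutant arrays and read 4.68, 4.84 and 4.65 in the Tbx1 mutants, and Scgb1b30 was placed likewise at 4.65, 4.87 and 4.63, so each was at least 1.20-fold lower, or at least 1.29-fold and 1.28-fold without replicate 2.

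Without replicate 2 other genes had the lowest p on the lower side. For Ptprg, Fat1, Cd59a, Gabbr1 and Nr2f1 among them, replicate 2 lay within or above the Tbx1 mutants. Ptprg, a receptor tyrosine phosphatase gene, read 9.96, 11.83 and 9.60 in the Foxn1 mutants, against 11.47, 11.34 and 11.31 in the Tbx1 mutants. Fat1, which encodes an atypical cadherin, read 12.26, 14.12 and 12.12 against 13.41, 13.41 and 13.29. In both genes the array with low Prss16 was the highest of all 6. Their differences were -0.91 and -0.53 with 6 arrays and -1.59 and -1.18 without it (limma adjusted p = 0.127 and 0.251). Clstn2 differed by -1.34 and -1.76 in the same way, Cd59a, a complement inhibitor gene, by -1.13 and -1.64, Gabbr1, a GABA receptor gene, by -0.91 and -1.34, and Nr2f1, a nuclear receptor gene, by -0.86 and -1.32. Duxbl2 and Duxbl3 had identical values, at -0.94 and -1.30.

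Epithelial junction and adhesion genes were higher as a list in the Foxn1 mutants, with and without replicate 2. Of 22 members 16 were higher, 6 of them without overlap of arrays (5% of all clusters were so), and 1 was lower without overlap (3.92% of all clusters). The median difference was 0.27, and with any 1 array left out it lay between 0.22 and 0.37. Over all 25 alternatives of arrays and processing it lay between 0.06 and 0.37. Without replicate 2 the median was 0.32, with 9 members higher and 2 lower without overlap, where 14.7% and 12.4% of all clusters were so. No member was called.

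Claudins, the strand proteins of tight junctions, had the lowest p within that list. Cldn7 read 8.95, 8.94 and 8.82 in the Foxn1 mutants, against 7.20, 7.98 and 7.65 in the Tbx1 mutants. All Foxn1 mutant arrays, replicate 2 included, lay within 0.15 of each other and above every Tbx1 mutant array. Cldn7 differed by 1.30 ± 0.24 (SE; limma adjusted p = 0.649), by 1.28 without replicate 2, by 1.74 within code A and by 1.07 between codes B and C. Cldn8 read 8.13, 7.21 and 7.81 against 6.45, 6.67 and 6.66 and differed by 1.13 ± 0.27 and by 1.38 without replicate 2. Cldn4 read 9.22, 8.58 and 7.95 against 7.43, 7.56 and 7.05 and differed by 1.24 ± 0.34, and by the same amount without replicate 2. The member lower without overlap was Dsp, the desmosomal plaque protein desmoplakin, at 11.75, 11.19 and 11.53 against 11.93, 12.60 and 12.60, a difference of -0.88 ± 0.27 and of -0.73 without replicate 2.

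The regulators of epithelial identity did not share a direction. Of 14 measured, 6 were higher and 8 lower with a median of -0.08, and the counts were the same without replicate 2 with a median of -0.05. With 6 arrays 1 was higher without overlap, a share near the 5% of all clusters. It was Klf5, a zinc finger factor of simple epithelia, at 7.85, 7.77 and 7.44 against 7.14, 7.06 and 6.66, with a difference of 0.73 and of 0.69 without replicate 2. Grhl2, which drives junction genes in other epithelia, differed by -0.31 ± 0.22 (SE), and Trp63, the factor of stratified and thymic epithelium, by 0.14 ± 0.23 (-0.35 and 0.31 without replicate 2).

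Genes that depend on FOXN1 in thymic epithelium were low on the array with low Prss16 and did not separate the genotypes on the rest. Prss16 is itself in this list, and that array was set apart by its low Prss16. The lack of separation without the array is thus partly built in by the choice. Whether the Foxn1 mutants keep the expression of these genes cannot be decided from the values without it. Of 16 members, 15 had a lower mean in the Foxn1 mutants with 6 arrays and a median of -0.64, but none was free of overlap. Without replicate 2 the median was -0.12, with 6 higher and 10 lower, and with 1 more array left out it lay between -0.18 and 0.06. The list mean was 9.31 and 9.43 on Foxn1 mutant replicates 1 and 3, 7.05 on replicate 2, and 9.30 to 9.59 in the Tbx1 mutants. Il7, the cytokine that thymocytes need, read 11.68, 9.22 and 11.83 against 11.21, 11.28 and 11.43. It differed by -0.40 with 6 arrays and by 0.44 without replicate 2, so its direction turned with that array. Cxcl12, a chemokine also made by mesenchyme, differed by -0.75 ± 0.41 (SE) and by -1.09 ± 0.37 without it.

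Keratins were also low on replicate 2. Krt8 and Krt18, the keratins of simple epithelium, read 12.37 and 11.06 on Foxn1 mutant replicate 2 and between 15.25 and 15.96 on the other 5 arrays. Krt5, a keratin of basal and medullary epithelium, read 13.42, 8.50 and 13.52 against 12.87, 13.70 and 13.44. The median of the 10 keratins was -0.21 with 6 arrays and -0.09 without replicate 2. Of the pharyngeal pouch transcription factors, 17 were measured, with a median of 0.11 and -0.01 without replicate 2, and none was called. With 6 arrays 3 were lower and 0 higher without overlap, where 3.92% and 5% of all clusters were so. Without replicate 2 there were 5 lower and 0 higher without overlap, where 12.4% and 14.7% of all clusters were so. Besides Chd7, Hes1, Tbx1 and Eya1 had the lowest p among the 17. Hes1, a repressor downstream of Notch, lay at background on all Foxn1 mutant arrays, and Eya1, a coactivator that the pouch needs, differed by 0.62 ± 0.35 (SE) and by 0.24 without replicate 2.

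**Figure D3:**
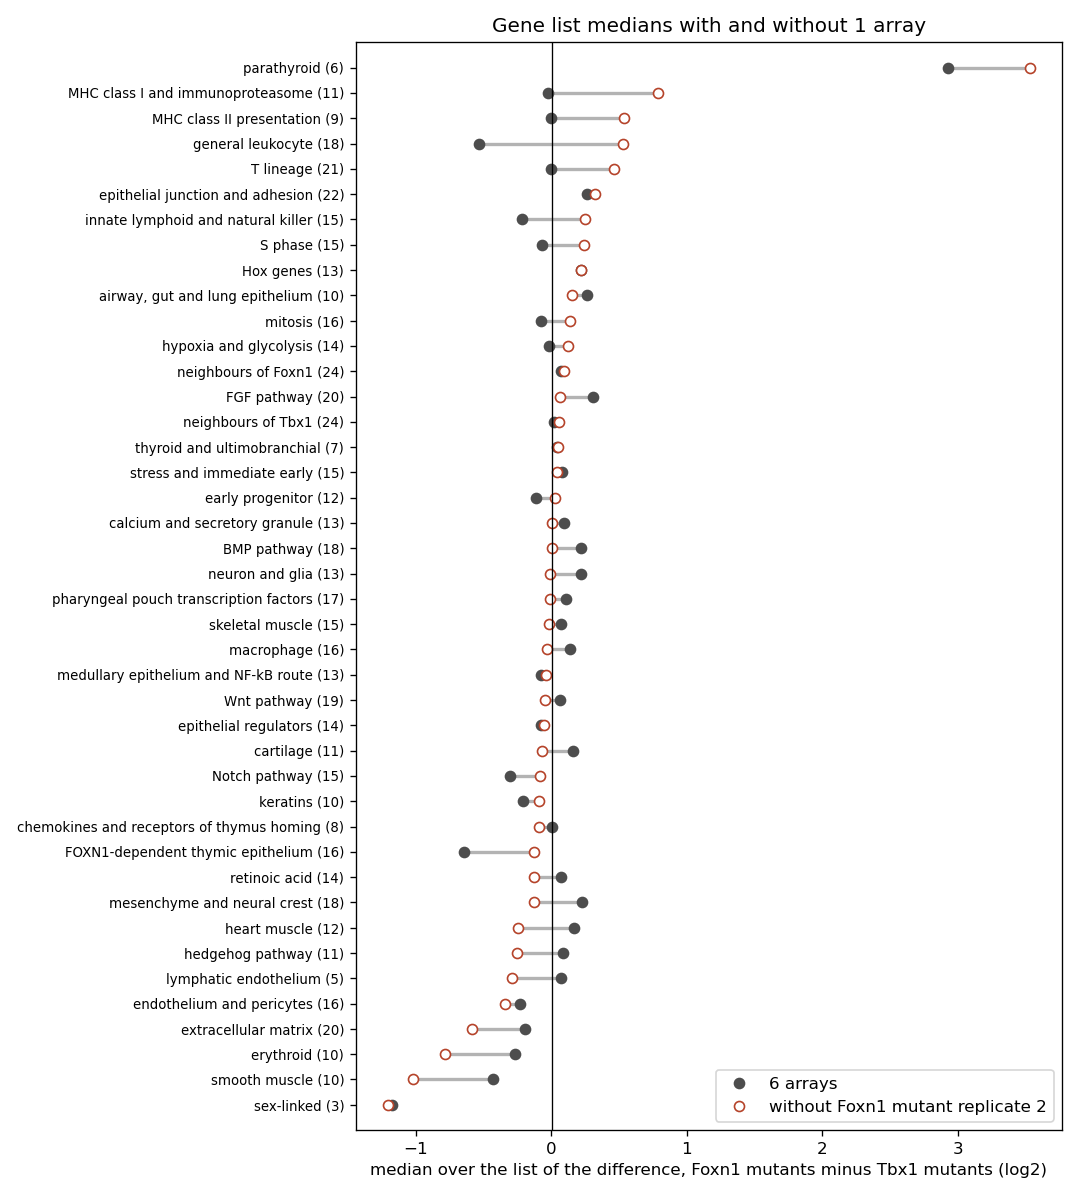
Median log2 difference of each gene list, Foxn1 mutants minus Tbx1 mutants, with all 6 arrays and without Foxn1 mutant replicate 2. The parathyroid median is 2.93 and 3.53, the junction median 0.27 and 0.32, and the general leukocyte median goes from -0.53 to 0.53.

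General leukocyte genes, expressed across white blood cells, turned from a lower to a higher median when the array of low Prss16 was left out. They had a median of -0.53 with 6 arrays and 3 of 18 members higher. Without replicate 2 the median was 0.53, with 15 of 18 higher and 9 of them without overlap, where 14.7% of all clusters were higher without overlap. With 1 more array left out it stayed between 0.34 and 0.71. Ptprc, the leukocyte phosphatase CD45, read 11.82, 5.87 and 12.33 in the Foxn1 mutants, against 10.56, 11.57 and 10.26 in the Tbx1 mutants. Cd48, an adhesion protein of lymphocytes, read 11.46, 5.84 and 11.74 against 10.13, 10.58 and 9.65. For both genes Foxn1 mutant replicates 1 and 3 were the highest of the 6 arrays and replicate 2 the lowest. Ptprc differed by -0.79 ± 1.51 (SE) with 6 arrays and by 1.28 ± 0.40 without replicate 2 (limma adjusted p = 0.456), and Cd48 by -0.44 ± 1.39 and 1.48 ± 0.30 (adjusted p = 0.312). Neither was called in either comparison.

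T lineage genes had no direction as a list with 6 arrays, where 10 of 21 were higher. Their median was -0.00 with 6 arrays and 0.46 without replicate 2, with 19 of 21 higher. Without overlap 6 were higher and 1 lower, where 14.7% and 12.4% of all clusters were so. Cd3g, a chain of the T cell receptor complex, read 11.99, 3.79 and 13.25 in the Foxn1 mutants, against 11.30, 11.80 and 9.79 in the Tbx1 mutants. Cd3e, its partner chain, read 7.94, 4.56 and 8.37 against 7.27, 7.10 and 5.99. In both, replicate 2 was at background and the other Foxn1 mutants were above all Tbx1 mutants. The differences without replicate 2 were 1.65 ± 0.61 and 1.37 ± 0.39 (SE), against -1.29 and 0.17 with it, and neither was called. With 1 more array left out the list median ran from 0.08 to 0.65, so its size depended on single arrays.

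Innate lymphoid and natural killer genes had a median of -0.22, and 0.25 without replicate 2. Gzmb, a granzyme of cytotoxic cells, read 12.02, 3.63 and 11.56 against 10.10, 10.84 and 10.01, and differed by -1.25 ± 1.95 (SE) with 6 arrays and 1.47 ± 0.31 without replicate 2 (limma adjusted p = 0.336). Gzma, a granzyme of the same granules, read 15.04, 3.69 and 15.58 against 14.84, 14.75 and 13.97, a difference of -3.08 and of 0.79 without replicate 2. On replicate 2 these abundant transcripts of the other 5 arrays were at background. Macrophage genes were not low there, and their list mean was 6.87 on replicate 2 and 6.47 to 6.52 on the other 5 arrays. The macrophage median was 0.14 with 6 arrays and -0.03 without replicate 2.

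Antigen presentation genes were also low on replicate 2. For MHC class I and immunoproteasome genes the median was -0.02 with 6 arrays. Without replicate 2 it was 0.78, with 10 of 11 members higher and 8 without overlap (14.7% of all clusters), and it lay between 0.60 and 0.78 with 1 more array left out. Psmb9, an immunoproteasome subunit, read 11.04, 3.64 and 11.87 in the Foxn1 mutants, against 9.82, 10.44 and 9.35 in the Tbx1 mutants. H2-D1, a class I heavy chain, read 6.47, 4.30 and 6.40 against 5.39, 5.33 and 5.14. Each was highest on Foxn1 mutant replicates 1 and 3 and at background on replicate 2, and the differences without it were 1.58 ± 0.38 and 1.15 ± 0.20 (SE; limma adjusted p = 0.382 and 0.286), against -1.02 and 0.44 with it. The MHC class II median went from -0.00 to 0.54, with 8 of 9 members higher without replicate 2. H2-Eb1, a class II chain, read 8.88, 6.53 and 9.99 against 8.51, 8.70 and 8.39, a difference of -0.06 and of 0.91 without replicate 2.

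**Figure D4:**
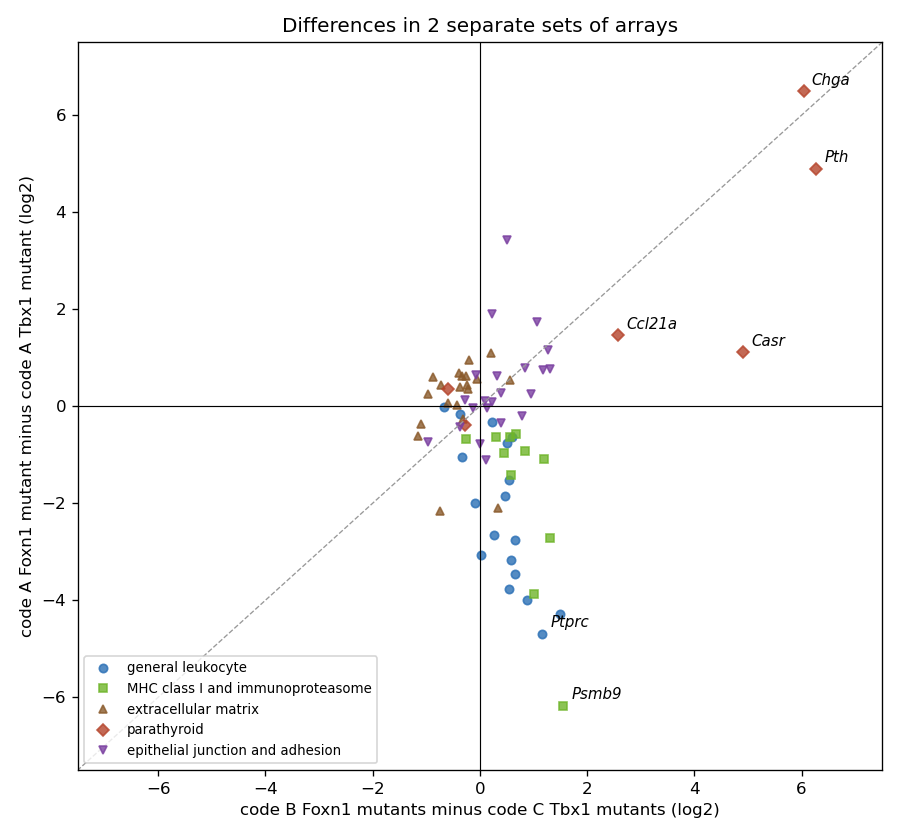
Difference of each member of 5 gene lists between codes B and C (horizontal axis, 2 arrays of each genotype) and within code A (vertical axis, 1 array of each genotype), in log2. Pth, Chga, Casr and Ccl21a lie in the upper right, while Ptprc and Psmb9 are at 1.16 and 1.56 on the horizontal axis and at -4.69 and -6.18 on the vertical.

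Within code A and between codes B and C the leukocyte genes opposed each other. Of the 18 leukocyte genes, 0 were higher in the Foxn1 mutant of code A and 14 were higher in those of code B, with medians of -2.33 and 0.53. Of the 11 class I genes the counts were 0 and 10. The parathyroid medians were 1.29 and 3.75, and 5 of the 6 members had the same direction in both. For the junction genes they were 0.19 and 0.27, with the same direction in 15 of 22. Only the code A pair compares the genotypes within a code, and it includes the array with low Prss16, so the part of the code in these values cannot be told apart from that of the array.

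Genes of DNA replication were low on replicate 2 as well. The S phase median was -0.07 with 6 arrays and 0.24 without it, with 13 of 15 higher and 8 without overlap (14.7% of all clusters). Gins2, a subunit of the replicative helicase complex, read 10.38, 9.44 and 10.80 against 9.91, 9.92 and 9.86, and Pcna, the polymerase clamp, 15.17, 13.97 and 15.27 against 14.83, 14.60 and 14.82. Both were highest on Foxn1 mutant replicates 1 and 3. They differed by 0.31 and 0.05 with 6 arrays and by 0.70 and 0.47 without replicate 2, and neither was called. The mitosis list went from -0.08 to 0.14.

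Matrix genes were lower as a list in the Foxn1 mutants, but with 6 arrays the direction rested on single arrays. With 6 arrays 15 of 20 members of the extracellular matrix list were lower in the Foxn1 mutants with a median of -0.19, and 2 did not overlap (3.92% of all clusters). The median was 0.03 without Foxn1 mutant replicate 1, 0.16 without Foxn1 mutant replicate 3 and 0.08 without Tbx1 mutant replicate 1. Within code A it was 0.42, with 15 of 20 higher, and between codes B and C -0.35, with 3 higher. Without replicate 2 the median was -0.59, with 17 of 20 lower and 14 without overlap, where 12.4% of all clusters were lower without overlap, and it lay between -0.68 and -0.35 with 1 more array left out. Fn1, fibronectin, read 13.81, 14.45 and 13.49 in the Foxn1 mutants, against 15.07, 14.63 and 14.99 in the Tbx1 mutants, and did not overlap even with replicate 2. It differed by -0.98 ± 0.29 (SE) and by -1.25 ± 0.23 without that array (limma adjusted p = 0.312). Col1a1, the main chain of type I collagen, read 12.14, 13.40 and 11.88 against 13.14, 12.60 and 13.36, with replicate 2 the highest of all. It differed by -0.56 and by -1.03 without replicate 2, and no matrix gene was called. The list mean was 10.89 on Foxn1 mutant replicate 2 and 10.78 on Tbx1 mutant replicate 1, the arrays of code A, and 9.71 to 10.29 on the other 4.

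Smooth muscle genes were likewise high on both arrays of code A, at a list mean of 7.13 and 7.32 against 5.09 to 6.18. Of 10 members, 8 were lower in the Foxn1 mutants with a median of -0.43, and all 10 were lower without replicate 2, with a median of -1.02 and 5 free of overlap (12.4% of all clusters). Mylk, myosin light chain kinase, read 5.35, 6.53 and 5.33 against 6.86, 6.73 and 7.24, without overlap, and differed by -1.21 ± 0.35 (SE) and by -1.60 ± 0.23 without replicate 2 (limma adjusted p = 0.156). Acta2, smooth muscle actin, read 9.50, 11.39 and 6.89 against 12.67, 9.63 and 9.32, with overlap, and differed by -1.28 and by -2.34 without replicate 2. The code A median of this list was -0.52 and that between codes B and C -0.59. Heart muscle genes were a matter of replicate 2: Myl7, an atrial myosin light chain, read 10.71 there and 3.55 to 6.53 on the other 5 arrays, and Nppa, the atrial natriuretic peptide gene, 7.55 against 2.80 to 3.37. The heart list had a median of 0.17 with replicate 2 and -0.24 without it.

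**Figure D5:**
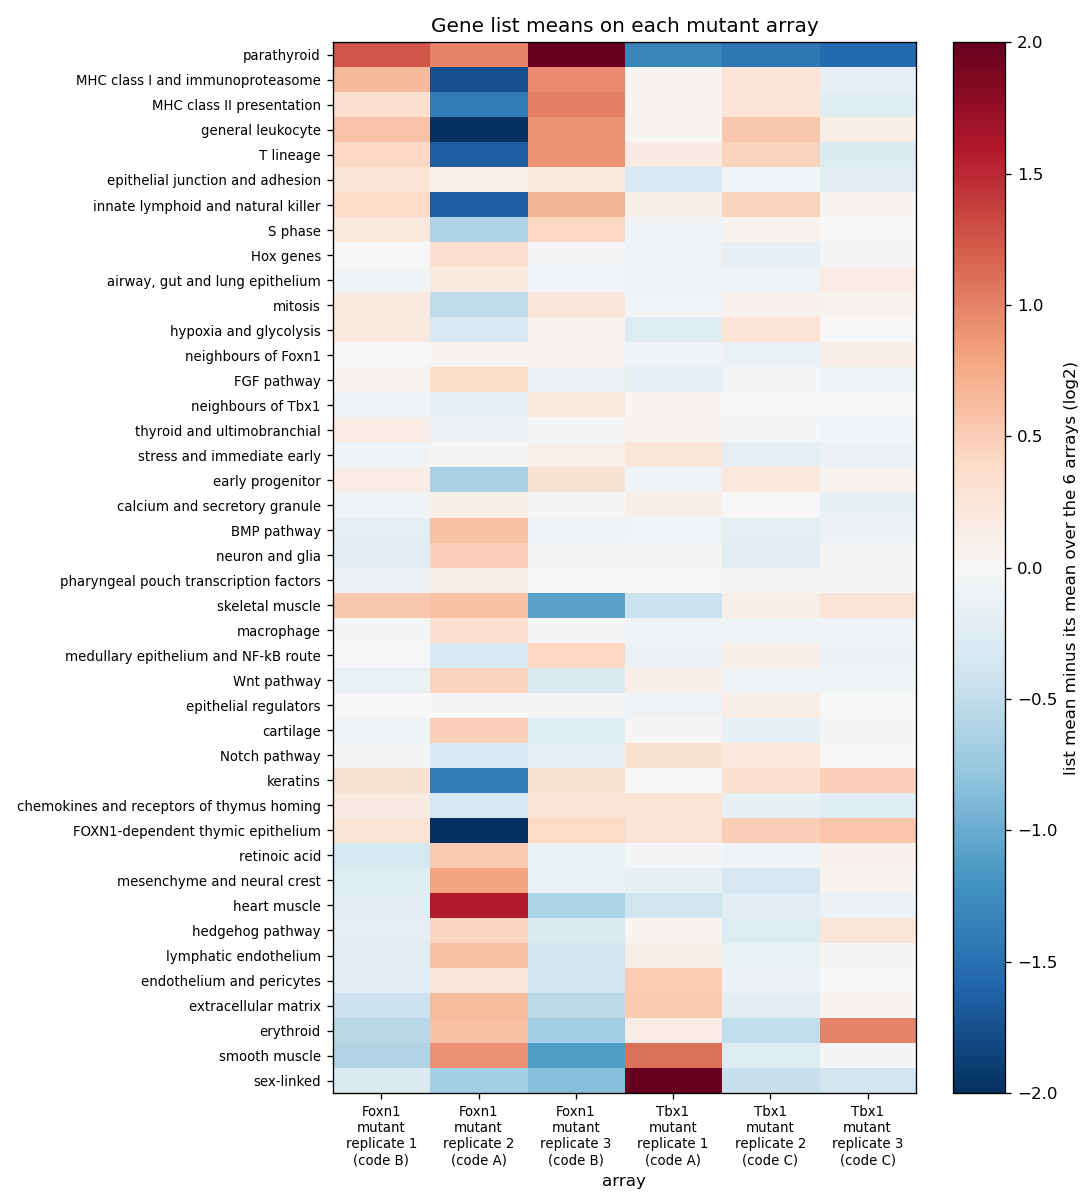
Mean log2 level of each gene list on each of the 6 arrays, minus the mean of that list over the 6 arrays, with the date code under each array and colours ending at 2 in either direction. The parathyroid row divides the genotypes, while the leukocyte, MHC and FOXN1-dependent rows single out Foxn1 mutant replicate 2.

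Mesenchyme and neural crest genes had a median of 0.23 with 6 arrays and -0.13 without replicate 2, with 12 and then 4 of 18 members higher. The latter was 0.09 with Tbx1 mutant replicate 3 left out as well. Some members kept their order on all arrays. Osr2, a zinc finger factor of craniofacial mesenchyme, read 8.47, 9.18 and 7.71 in the Foxn1 mutants, against 7.68, 6.76 and 6.30 in the Tbx1 mutants, a narrow separation with a difference of 1.54 ± 0.45 (SE) and of 1.17 without replicate 2. Meox2, a homeobox gene of somites and limb mesenchyme, was at background in all Tbx1 mutants and above it on 2 of 3 Foxn1 mutant arrays, at least 1.21-fold higher with 6 arrays and 1.05-fold without replicate 2. Pdgfrb, the growth factor receptor of pericytes and mesenchyme, differed by -0.66 ± 0.22 and by -0.55 without replicate 2, with 12.52 to 12.97 in the Foxn1 mutants and 13.15 to 13.53 in the Tbx1 mutants. None of these was called. Endothelial and pericyte genes had a median of -0.23 and -0.34 without replicate 2, where the former was 0.03 without Tbx1 mutant replicate 1. Erythroid genes had -0.26 and -0.78, but 0.39 within code A. Epb42, a protein of the red cell membrane skeleton, read 4.86, 7.11 and 4.67 against 7.25, 6.21 and 8.10, a difference of -1.64 and of -2.42 without replicate 2.

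No member of the signalling lists was called, and their medians lay between -0.31 and 0.31 with 6 arrays. The FGF pathway, which thymic mesenchyme uses to make epithelium grow, had a median of 0.31 and 0.06 without replicate 2. Its target Etv5, an ETS factor, read 13.54, 14.00 and 13.67 in the Foxn1 mutants, against 13.10, 13.08 and 12.97 in the Tbx1 mutants, without overlap, and differed by 0.69 ± 0.21 (SE) and by 0.56 without replicate 2. Dusp6, the phosphatase that FGF signals induce against themselves, differed by 0.51 ± 0.25 and by 0.47 without replicate 2. Of the Notch pathway, 13 of 15 members were lower with a median of -0.31, and 11 were lower without replicate 2 with a median of -0.08. Single Notch members then reached -1.70, and 6 were lower and 3 higher without overlap, where 12.4% and 14.7% of all clusters were so. Heyl, a repressor downstream of Notch in vessels, read 7.76, 6.99 and 7.31 against 8.17, 8.49 and 7.99, and differed by -0.86 ± 0.26 and by -0.68 without replicate 2.

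Bone morphogenetic protein genes had a median of 0.22 that came to 0.00 without replicate 2. Id1, a target of that pathway, read 10.75, 12.52 and 10.95 against 10.34, 10.30 and 10.48, highest on replicate 2, a difference of 1.04 and of 0.48 without it. The hedgehog median was 0.09 and -0.25 without it, and 0.03 with Tbx1 mutant replicate 3 left out as well. Ptch1, the hedgehog receptor and a target of the pathway, read 8.49, 8.61 and 8.01 against 9.09, 8.76 and 9.60, without overlap, and differed by -0.78 ± 0.28 (SE) and by -0.90 ± 0.30 without replicate 2. Gli3, a transcription factor of the same pathway, read 8.99, 10.52 and 9.23 against 10.07, 9.90 and 10.01, a difference of -0.41 and of -0.88 without replicate 2. The Wnt and retinoic acid medians were 0.06 and 0.07, and -0.05 and -0.12 without replicate 2. Sfrp2, a secreted Wnt antagonist of mesenchyme, read 7.94, 10.49 and 7.53 against 10.64, 8.72 and 9.35, a difference of -0.92 ± 0.79 and of -1.83 ± 0.51 without replicate 2 (limma adjusted p = 0.423).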

How the data were processed

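The 6 mutant arrays were grouped by the genotype in the labels. RNA was extracted, amplified and biotin-labelled for Clariom S mouse arrays, per the labels' protocols. The authors deposited log2 values, used as given (1.47 to 19.92). Software, normalization and build were not given in the sources used here. Controls (6640 features) and 64 unmapped clusters were left out. Of 22142 clusters, 19527 had 1 gene symbol, all found in RefSeq, and 2615 had none. Genotypes were compared with limma 3.58.1 in R 4.3.3 (lmFit and eBayes, two-sided, Benjamini-Hochberg over all clusters, threshold 0.05), with 6 arrays and without the array on which Prss16 was under 6. Errors with ± are SEs of the limma fit unless stated. Fold changes come from log2 differences. A value is above background where it exceeds its array's negative-control median, and "at least" folds raise lower values to that median. A gene with several clusters is represented in its list by that of highest mean.

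The comparison, the 40 gene lists and the rule for named genes were chosen with earlier results of these data known. That rule took Foxn1, Tbx1, Prss16 and Psmb11, every called gene of either fit, a fill to 10 per direction and fit by lowest p among genes without overlap and above background in a genotype, up to 4 members of lowest p per list and fit, and the 6 genes most like Pth. Lists are given by counts and medians with no test. Alternatives were all 9 arrays, each array left out, quantile normalization, median centring, filters on dim clusters, other moderation, array weights, date code blocks, thresholds, X and Y clusters and identical clusters. The fit was tested on simulated data. Figures used matplotlib 3.10.9 in Python 3.11.15.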

Additional observations from a re-analysis of the deposited data

How the results depend on the processing

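With 6 arrays 2 clusters were called. The count was 0 with all 9 arrays and with the date code as a fixed or random block over them (unadjusted p under 0.05: 372 higher and 286 lower, 1062 and 938, 366 and 265), 8 with array weights and 6 at an adjusted p under 0.1. It was 148 with the code as a fixed block over the 6 mutants, a fit whose difference rests on the code A pair alone. With each array left out in turn it ran from 0, without Foxn1 mutant replicate 1 (390 higher and 271 lower at an unadjusted p under 0.05), to 5. Without Foxn1 mutant replicate 2, 5 clusters were called. That count was 0 with all other arrays or a random block (504 and 491, 500 and 484), and 2 with the wild type array of low Prss16 also left out. It was 2 with quantile normalization and 3 with medians subtracted. Among the 16606 clusters of highest mean it stayed at 5, and among the 11071 of highest mean it was 9. The count was 30 with an intensity trend and robust moderation, 3 with array weights and 2 with a fixed block. At a threshold of 0.1 it was 9, and at 0.01 it was 2. These repeats, the addition of unmapped clusters and the calls between codes B and C were chosen after seeing the data. With 1 more array left out it ran from 0, without Tbx1 mutant replicate 2 (969 and 852), to 14, where a genotype with a single array is assumed to vary like the other. Chga kept its direction in all 24 alternatives (5.87 to 7.56) and was called in 18 of 22 fits, and Pth (4.89 to 6.34) in 16 of 22. Reversed were Psmb11, at 0.30 without Foxn1 mutant replicate 2 (-3.26 to 0.30 with each array left out, and 0.30 from all arrays less those of low Prss16), and Tbx1, at 0.021 with the fixed block over 9 arrays. The cause of these changes was not tested. Levels near the negative controls limit Tbx1 and the Tbx1 mutant level of Chga. No paired analysis was possible because replicates were numbered in accession order and the numbers in the titles pair no samples.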

Other observations

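Other gene groups of the neck and chest differed little between the mutants. Of 13 measured Hox genes 9 were higher in the Foxn1 mutants, with a median of 0.22. Without replicate 2 the median was 0.22 as well, with 7 higher and 6 lower. Only 4 of the 13 were above background on all 6 arrays. With low values raised to background, the median with 6 arrays was -0.06. Hoxb2, a gene of the hindbrain and second pharyngeal arch, read 7.49, 8.18 and 7.28 against 6.79, 6.90 and 7.39, with overlap, a difference of 0.62 and of 0.35 without replicate 2. Neuron and glia genes had a median of 0.22 and -0.01 without replicate 2, and cartilage genes 0.16 and -0.07. Sox9, the factor that starts cartilage, read 7.20, 9.37 and 6.98 against 6.86, 6.35 and 6.86, with replicate 2 far above the rest, a difference of 1.16 and of 0.40 without it. Thyroid and ultimobranchial genes had a median of 0.04 and 0.05 without replicate 2, with 1 of 7 measured members above background on any of the 6 arrays. Airway, gut and lung genes had 3 of 10 above background and a median of 0.26, or 0.15 without replicate 2 and -0.04 with Tbx1 mutant replicate 2 left out as well. Gata4, a factor of heart and foregut tissue, read 5.63, 6.10 and 5.18 against 6.44, 5.75 and 8.21, highest on Tbx1 mutant replicate 3, a difference of -1.40 without Foxn1 mutant replicate 2.

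Skeletal muscle genes moved with single arrays, at a list mean of 4.38 on Foxn1 mutant replicate 3 and 5.01 to 6.04 on the other 5. Myog, a regulator of muscle differentiation, read 8.96, 7.72 and 4.82 against 7.85, 9.23 and 9.48, a difference of -1.69 and of -1.97 without Foxn1 mutant replicate 2. Hypoxia and glycolysis genes had a median of -0.02, and 0.13 without replicate 2, or -0.06 with Tbx1 mutant replicate 1 left out as well. Stress and immediate early genes had 0.08 and 0.04, where Jun, a subunit of the AP-1 factor, read 8.57 on Foxn1 mutant replicate 2 and 5.75 to 6.22 on the other 5 arrays. None of these genes was called.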
